A study of Mus musculus with 24 samples.

Results

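miR-191 and miR-425 are made from 2 hairpins that lie next to each other on mouse chromosome 9, and each hairpin can release a mature miRNA from its 5p and its 3p arm. The 4 mature miRNAs, mmu-miR-191-5p, mmu-miR-191-3p, mmu-miR-425-5p and mmu-miR-425-3p (written without the mouse prefix from here on), were taken by name from the 1978 mature miRNAs of a small RNA-seq table of mouse germ cells, and all 4 had enough counts to be tested in each comparison. The table holds 24 libraries, 4 for each of 3 genotypes in pachytene/diplotene spermatocytes and in round spermatids enriched from the testes of C57BL/6J males aged 10 to 15 weeks. The genotypes were Ago413+/+, Ago413+/- and Ago413-/-, of a line in which all of Ago1 and parts of Ago3 and Ago4 are deleted in every cell of the body while Ago2 is intact. The line was kept by crossing Ago413+/- animals, so that all 3 genotypes come from carriers. Each cell suspension came from pooled testes of 2 to 5 mice, and gradient fractions of more than 70% purity were pooled, so other testis cells could be present in every library. The deletion itself could not be checked from miRNA counts.

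A miRNA hairpin is cut from a longer transcript by Drosha, and Dicer then trims the loop to leave a short duplex. An Argonaute protein keeps one strand of the duplex as its guide, and the other strand is mostly degraded, which is why the arms of a hairpin differ in abundance. The guide finds its target mRNAs mainly through its seed, bases 2 to 8 from the 5′ end. miR-191 is widely expressed and is often used as a reference miRNA in expression assays, and miR-425 is produced from the same transcript.

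The mature sequences are shown because reads were assigned to the members by sequence, and because the seeds show that the members do not share a targeting sequence. They are from RefSeq (GRCm38.p6) and are written 5′ to 3′ with the seed in capitals.
miR-191-5p: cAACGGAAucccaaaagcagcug
miR-191-3p: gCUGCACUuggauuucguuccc
miR-425-5p: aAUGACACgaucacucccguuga
miR-425-3p: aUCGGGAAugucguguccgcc
The 4 seeds are all different. Among the 1678 other mature miRNAs compared, miR-489-3p was the only one with a member's seed, that of miR-425-5p. It had 0 counts in all 24 libraries.
miR-489-3p: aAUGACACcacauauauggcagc
The longest stretch that a member shared with any of 1678 other mature miRNAs of the table was 8 bases.

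The hairpins are shown with both mature arms in capitals, since the arm ratios reported further on compare the capital stretches of each.
Mir191: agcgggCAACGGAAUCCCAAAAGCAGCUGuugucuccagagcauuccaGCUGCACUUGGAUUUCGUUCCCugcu
Mir425: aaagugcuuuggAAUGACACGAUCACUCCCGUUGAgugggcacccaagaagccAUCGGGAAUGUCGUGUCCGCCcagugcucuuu
Mir191 lies at chr9:108568319-108568392 and Mir425 at chr9:108568777-108568861 on the plus strand of GRCm38.p6, with 384 bases between them. No other miRNA gene of the RefSeq annotation lies within 10000 bases of them. In RefSeq both hairpins fall within Dalrd3 (chr9:108567484-108572773). In GENCODE M21 Dalrd3 starts at 108569886, downstream of both, and the hairpins lie in exon 1 of the long noncoding transcript 4833445I07Rik-201. GENCODE also places Mir191 in an intron of the transcript 4833445I07Rik-202 and lists an overlapping minus-strand miRNA gene, Gm24083. Whether reads from that strand were counted is not given in the sources used here.

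Library totals ran from 182904 to 1072637 counts, and levels are given as CPM, the library-size-scaled counts that edgeR gives, normalized by TMM over the 24 libraries. The smallest library, Ago413-/- spermatocytes replicate 2, stood apart for this cluster. It held the lowest miR-191-5p level of all libraries (26864 CPM), the highest miR-191-3p level (253 CPM) and no count of miR-425-3p. Its summed level of miR-449a-5p, miR-34c-5p and miR-34b-5p, 3 miRNAs known from meiotic germ cells, was 18752 CPM, against 36488 to 186145 CPM in the other libraries, and the results that rest on it are given with and without it. The meiotic germ cell list was abundant in both fractions, and none of the 450 miRNAs tested passed edgeR's quasi-likelihood test between the Ago413+/+ fractions (10 had an unadjusted p under 0.05, and DESeq2 called 0). Without a filter on low counts 4 passed. No marker list that tells spermatocytes from round spermatids was used here, so the separation of the fractions was not checked from these counts. The paper reports that the purity of the fractions was judged by light microscopy and by immunofluorescence of meiotic spreads.

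miR-191-5p was among the most abundant miRNAs of both cell types. Its mean over the 24 libraries was 43275 CPM, the fourth highest of all miRNAs, and its rank within a library ran from 2 to 14. It took between 2.20% and 6.30% of the counts of a library. miR-425-5p averaged 5153 CPM and ranked 41 by its mean. The 3p arms were far rarer, with 104 CPM on average for both miR-191-3p and miR-425-3p, which corresponds to 16 to 111 counts of miR-191-3p and 0 to 125 counts of miR-425-3p in a library. The 4 members together took 4.37% to 5.39% of the counts in the mean of each group. These levels compare cDNA counts of different short RNAs, and ligation of the adapters can favour some sequences over others, so the order of the members by abundance carries that limit.

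miR-191-5p was also one of the steadiest miRNAs. The standard deviation of its log2 CPM (computed with 0.5 added to each count) was 0.30 over all 24 libraries, the eighth smallest of 450 miRNAs, whose median was 0.76. Among the 50 most abundant miRNAs, a comparison chosen after the values were seen, it had the fifth smallest standard deviation, and miR-425-5p, with 0.38, the twelfth. miR-191-3p (0.56) and miR-425-3p (1.13) varied more, at far lower counts. The value of miR-425-3p includes the library with 0 counts of it, whose log2 CPM is set by the 0.5 added. On the linear scale the SD was 35.8% of the mean CPM for miR-425-3p and 42.7% for miR-191-3p. The log2 value without that library was not computed.

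**Figure D1:**
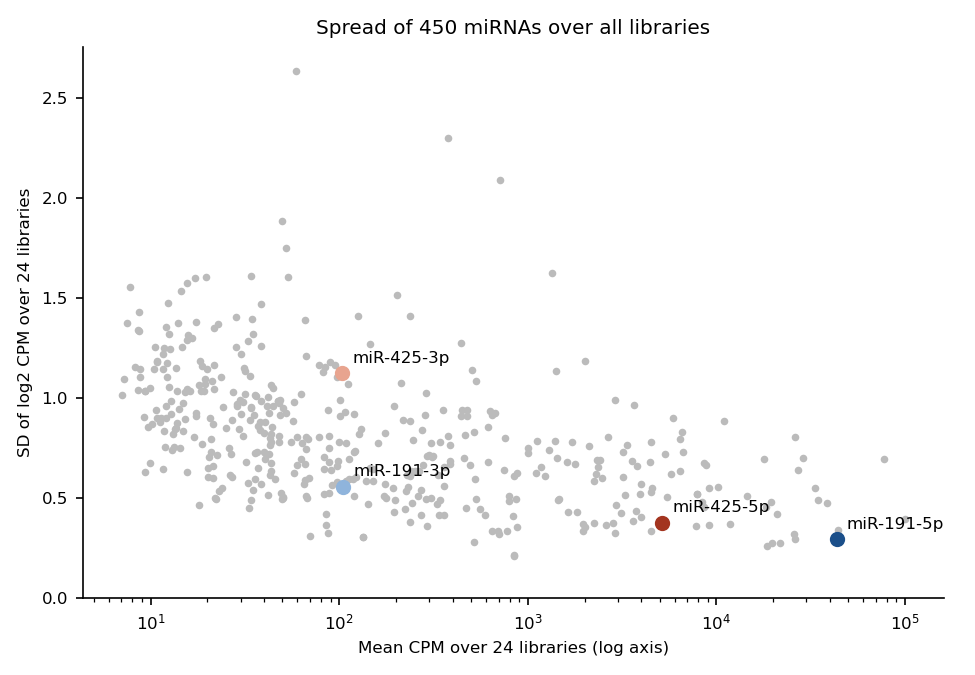
Standard deviation of log2 CPM over the 24 libraries against mean CPM (log axis) for 450 miRNAs, 1 point each, with the 4 members in colour. miR-191-5p (0.30) and miR-425-5p (0.38) sit along the lower edge at high abundance, and miR-425-3p (1.13) is above the median of 0.76. The miR-425-3p value includes a library with 0 counts, set by the 0.5 added.

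Levels of miR-191-5p overlapped between all groups. In Ago413+/+ spermatocytes replicates 1 to 4 held 48212, 39492, 36613 and 44905 CPM, in Ago413+/- spermatocytes 36780, 41113, 58752 and 48891 CPM, and in Ago413-/- spermatocytes 53261, 26864, 59167 and 55756 CPM. Of the Ago413-/- spermatocytes, 3 libraries were above every Ago413+/+ library and replicate 2 was below them all. In round spermatids the Ago413+/+ libraries held 32601, 39567, 57625 and 44347 CPM, the Ago413+/- libraries 36965, 33534, 42648 and 34377 CPM, and the Ago413-/- libraries 39324, 47024, 36477 and 44319 CPM. All Ago413-/- round spermatids lay within the range of the Ago413+/+ libraries. Group means ran from 36881 ± 4112 CPM (SD, n = 4) in Ago413+/- round spermatids to 48762 ± 14798 CPM (SD, n = 4) in Ago413-/- spermatocytes, and the libraries of neighbouring groups in that order overlapped.

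miR-425-5p was higher in the Ago413-/- libraries of both cell types. In spermatocytes the Ago413+/+ libraries held 3745, 3690, 3809 and 5362 CPM, the Ago413+/- libraries 4987, 4302, 4906 and 4707 CPM, and the Ago413-/- libraries 9083, 5653, 7274 and 6007 CPM. Every Ago413-/- library was above every library of the other genotypes, although the highest Ago413+/+ library, replicate 4, came near the lowest of them. In round spermatids the Ago413+/+ libraries held 3659, 3548, 5155 and 4334 CPM, the Ago413+/- libraries 5823, 4494, 4444 and 3340 CPM, and the Ago413-/- libraries 6963, 7721, 5198 and 5466 CPM. Here the lowest Ago413-/- library exceeded the highest Ago413+/+ library by little, and Ago413+/- replicate 1 lay among the Ago413-/- libraries. In order of their means, the groups of round spermatids were Ago413+/+ with 4174 ± 741 CPM, Ago413+/- with 4525 ± 1016 CPM and Ago413-/- with 6337 ± 1206 CPM (SD, n = 4 each). In spermatocytes the means were 4151 ± 809, 4726 ± 306 and 7004 ± 1551 CPM in the same order. Ago413+/+ and Ago413+/- overlapped in both cell types.

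**Figure D2:**
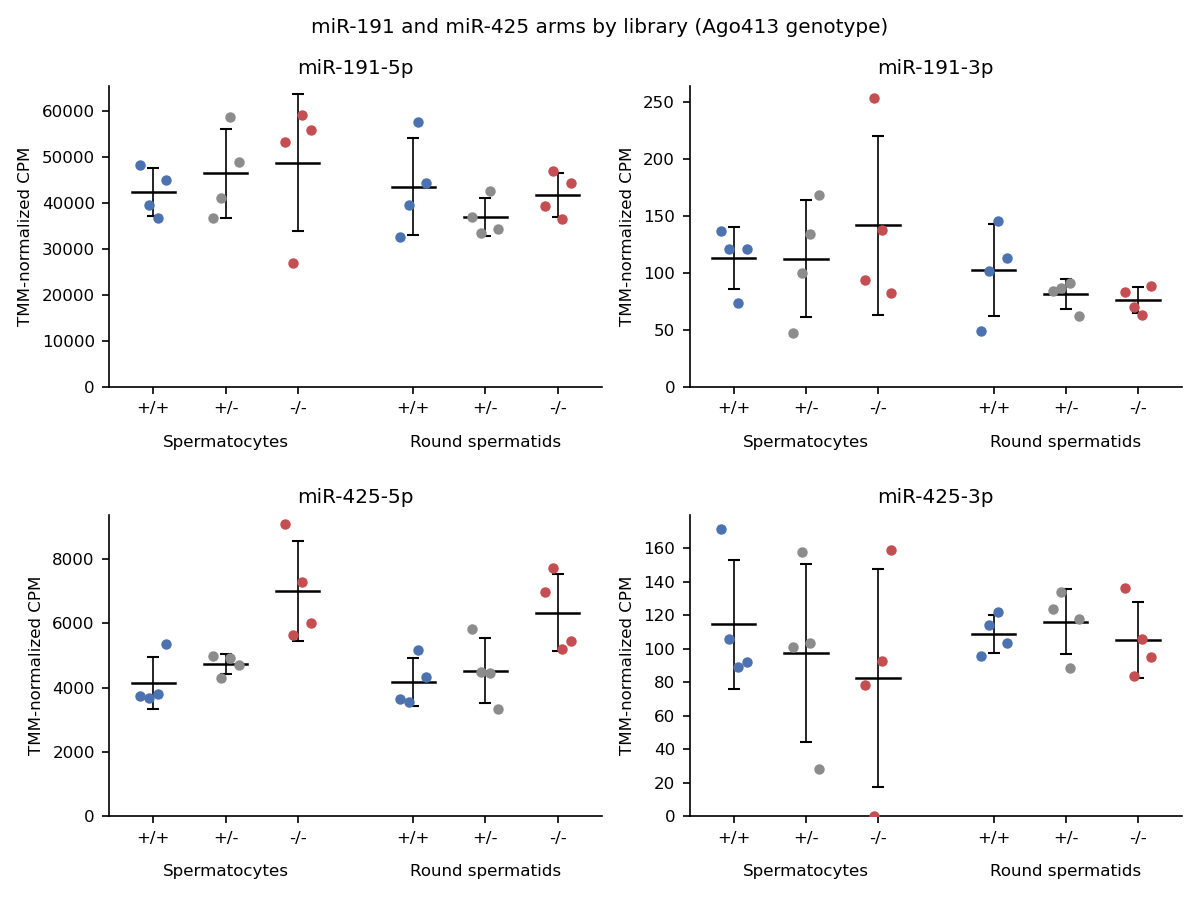
TMM-normalized CPM (linear axis from 0) of the 4 members in the 24 libraries, with 1 point per library and the mean and SD of each group of 4 in black. The miR-425-5p panel shows the Ago413-/- libraries (5198 to 9083 CPM) above the Ago413+/+ libraries (3548 to 5362 CPM) of the same cell type, while the other panels overlap.

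The comparison of Ago413-/- with Ago413+/+ asks which of these miRNAs changed when AGO1, AGO3 and AGO4 were lost. In round spermatids miR-425-5p, the abundant arm of its hairpin, rose by a log2 fold change of 0.76 ± 0.22 (SE, 95% confidence interval 0.30 to 1.22, 1.69-fold), with an adjusted p of 0.0185 in edgeR's quasi-likelihood test. It was 1 of 4 members past the test at an adjusted p under 0.05, where 23.7% of the 426 miRNAs tested passed, and 23.7% had groups that did not overlap in CPM. With a further threshold of 1 on the absolute log2 fold change 16.2% of miRNAs passed and 0 of 4 members. The other members did not pass, with log2 fold changes of 0.10 (95% confidence interval -0.28 to 0.48) for miR-191-5p, -0.26 (-0.88 to 0.36) for miR-191-3p and 0.11 (-0.40 to 0.62) for miR-425-3p. With libraries scaled by their totals alone miR-425-5p gave 0.54 (adjusted p = 0.0818), and without a filter on low counts 0.52 (adjusted p = 0.269), and neither passed. It was also lost when single libraries were left out, with 0.47 (adjusted p = 0.187) without Ago413+/+ replicate 1, 0.50 (0.164) without replicate 2 and 0.64 (0.0758) without replicate 4, and with 0.58 (0.124) without Ago413-/- replicate 1 and 0.66 (0.0526) without replicate 2. It held without the third replicate of either genotype (0.82 and 0.83) and without Ago413-/- replicate 4. Fold changes are from the 12 libraries of a cell type, scaled on their own, and therefore differ somewhat from ratios of the mean CPM.

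The scaling shifted all miRNAs of this comparison together. Over all 426 miRNAs the log2 fold change had a median of 0.13 under TMM and -0.09 under library totals, and 101 miRNAs passed the test under TMM, 53 higher and 48 lower, where 89 passed under library totals, 27 higher and 62 lower. Relative to the median of all miRNAs, miR-425-5p was higher by 0.62 under TMM and by 0.63 under library totals, and by 0.50 to 0.73 under each of the settings and left-out libraries tried. This measure was chosen after the values were seen.

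**Figure D3:**
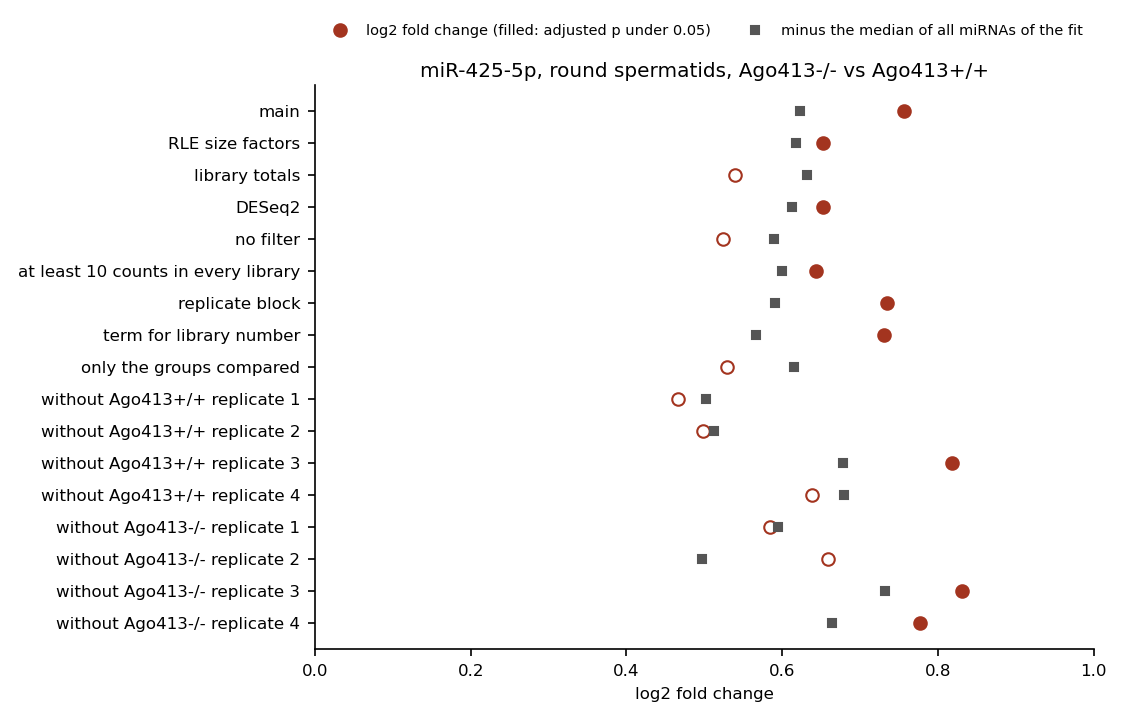
log2 fold change of miR-425-5p in round spermatids, Ago413-/- against Ago413+/+, under TMM scaling of 12 libraries (main) and each alternative or left-out library. Circles are the log2 fold change, filled where the adjusted p was under 0.05, and squares subtract the median of all miRNAs of the fit, which keeps every value between 0.50 and 0.73.

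Some miRNAs of other testis cells were higher in Ago413-/- round spermatids than in Ago413+/+. In this comparison 23.7% of the 426 miRNAs tested passed in either direction. In round spermatids 2 of 2 tested miRNAs of blood cells passed the test upwards in Ago413-/-, miR-451a by 3.26 and miR-486a-5p by 2.11 on the log2 scale, as did 1 of 2 of endothelium, miR-126a-3p by 1.63, and 2 of 3 of leukocytes, miR-223-3p by 2.65 and miR-142a-5p by 1.18. Of peritubular cells 0 of 2 passed, and both were lower in Ago413-/-, with -1.74 and -0.14. Of 3 miRNAs of spermatogonia, which ran from -0.42 to 0.85, miR-21a-5p passed with 0.66. Of 3 of meiotic germ cells, which ran from 0.16 to 0.98, miR-449a-5p passed with 0.98. Summed levels of the blood list ran from 49.2 to 501 CPM in Ago413+/+ and from 103 to 4813 CPM in Ago413-/- round spermatids, with no list member at 0 in a whole group. The endothelial sum was 511 to 1990 against 1951 to 5858 CPM, the leukocyte sum 134 to 322 against 371 to 533 CPM, the peritubular sum 1060 to 8555 against 2031 to 3444 CPM, the sum for spermatogonia 5311 to 8791 against 8942 to 11516 CPM, and that for meiotic germ cells 59253 to 108408 against 70397 to 133847 CPM. Without Ago413-/- replicate 4, the library with 4813 CPM of blood miRNAs, miR-425-5p gave a log2 fold change of 0.78 (adjusted p = 0.0340, edgeR). The endothelial sum was highest in Ago413-/- replicates 1 (5858 CPM) and 2 (3854 CPM), and miR-425-5p did not pass without either of them, as given above. The part of blood and of the other cell types in the result was not tested. In bulk fractions like these, more cells of a type and more RNA per cell cannot be told apart.

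In spermatocytes miR-425-5p gave nearly the same estimate with a wider error, and it did not pass edgeR's test. Its log2 fold change in Ago413-/- against Ago413+/+ was 0.75 ± 0.27 (SE, 95% confidence interval 0.17 to 1.32, 1.68-fold, adjusted p = 0.0981). No member of 4 passed, where 4.46% of the 404 miRNAs tested did, and 19.8% of them had groups that did not overlap. DESeq2, run on the same miRNAs, placed it past the threshold with 0.73 (adjusted p = 0.0190), and it called 17.3% of all miRNAs in this comparison. The other members gave 0.19 (-0.39 to 0.77) for miR-191-5p, 0.30 (-0.64 to 1.23) for miR-191-3p and -0.46 (-1.84 to 0.92) for miR-425-3p, with 95% confidence intervals in parentheses. Without the smallest library, Ago413-/- replicate 2, these became 0.83 for miR-425-5p (adjusted p = 0.0692, edgeR), 0.39 for miR-191-5p, -0.13 for miR-191-3p and -0.09 for miR-425-3p, and none passed. In spermatocytes 0 of 2 blood, 0 of 2 peritubular, 0 of 2 endothelial, 0 of 2 leukocyte, 0 of 3 spermatogonia and 0 of 3 meiotic germ cell miRNAs tested passed.

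The effect of the genotype on the members was not shown to differ between the cell types. The interaction of genotype and cell type was -0.15 ± 0.33 (SE, 95% confidence interval -0.83 to 0.52) on the log2 scale for miR-425-5p, with an adjusted p of 0.833 in edgeR. For the other members it lay between -0.72 (miR-191-3p) and 0.40 (miR-425-3p). Without Ago413-/- spermatocytes replicate 2 it was -0.10 for miR-191-3p and 0.24 for miR-425-3p. No miRNA of 450 passed the interaction test in edgeR or in DESeq2, and 55 had an unadjusted p under 0.05 in edgeR. Without a filter on low counts edgeR called 8.

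The libraries also carry numbers in their labels, and in both Ago413+/+ and Ago413-/- replicates 1 and 2 are numbered up to 60 and replicates 3 and 4 above it. Whether these numbers mark a date or a preparation is not stated. In round spermatids the mean miR-425-5p level was 7342 CPM in Ago413-/- against 3604 CPM in Ago413+/+ (2.04-fold) among libraries numbered up to 60, and 5332 against 4745 CPM (1.12-fold) among those above. In spermatocytes the means were 7368 against 3717 CPM (1.98-fold) and 6640 against 4585 CPM (1.45-fold). Each of these sets holds 2 libraries against 2, too few to test. With a term for the number in the fit, miR-425-5p in round spermatids gave 0.73 (adjusted p = 0.0272, edgeR) and in spermatocytes 0.75 (adjusted p = 0.126, edgeR). Both genotypes hold 2 libraries on each side of 60, so such a term can move their difference little. It also does not model a fold that differs between the sets, so no conclusion on the library number is drawn from it.

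The comparison of Ago413+/- with Ago413+/+ addresses the loss of a single copy. No member passed the test, with log2 fold changes between -0.16 and 0.22 in spermatocytes and between -0.24 and 0.21 in round spermatids. For miR-425-5p they were 0.22 (95% confidence interval -0.35 to 0.79) and 0.21 (-0.25 to 0.66), which leave room for an increase as for none. Over all miRNAs 0% passed edgeR's test in either cell type, while 13 in spermatocytes and 68 in round spermatids had an unadjusted p under 0.05, and DESeq2 called 0 and 6. Without a filter on low counts edgeR called 4 and 12. In Ago413-/- against Ago413+/-, miR-425-5p gave 0.52 (-0.05 to 1.10, adjusted p = 0.238, edgeR) in spermatocytes, where 2.23% of miRNAs passed the test and 10.6% had groups that did not overlap, as the groups of miR-425-5p did not. In round spermatids it gave 0.55 (0.09 to 1.01, adjusted p = 0.0840, edgeR), where 19% of miRNAs passed. It passed there without Ago413+/- replicate 1, with 0.72 (adjusted p = 0.0496, edgeR). The comparisons of a cell type share their libraries and are not independent of each other.

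**Figure D4:**
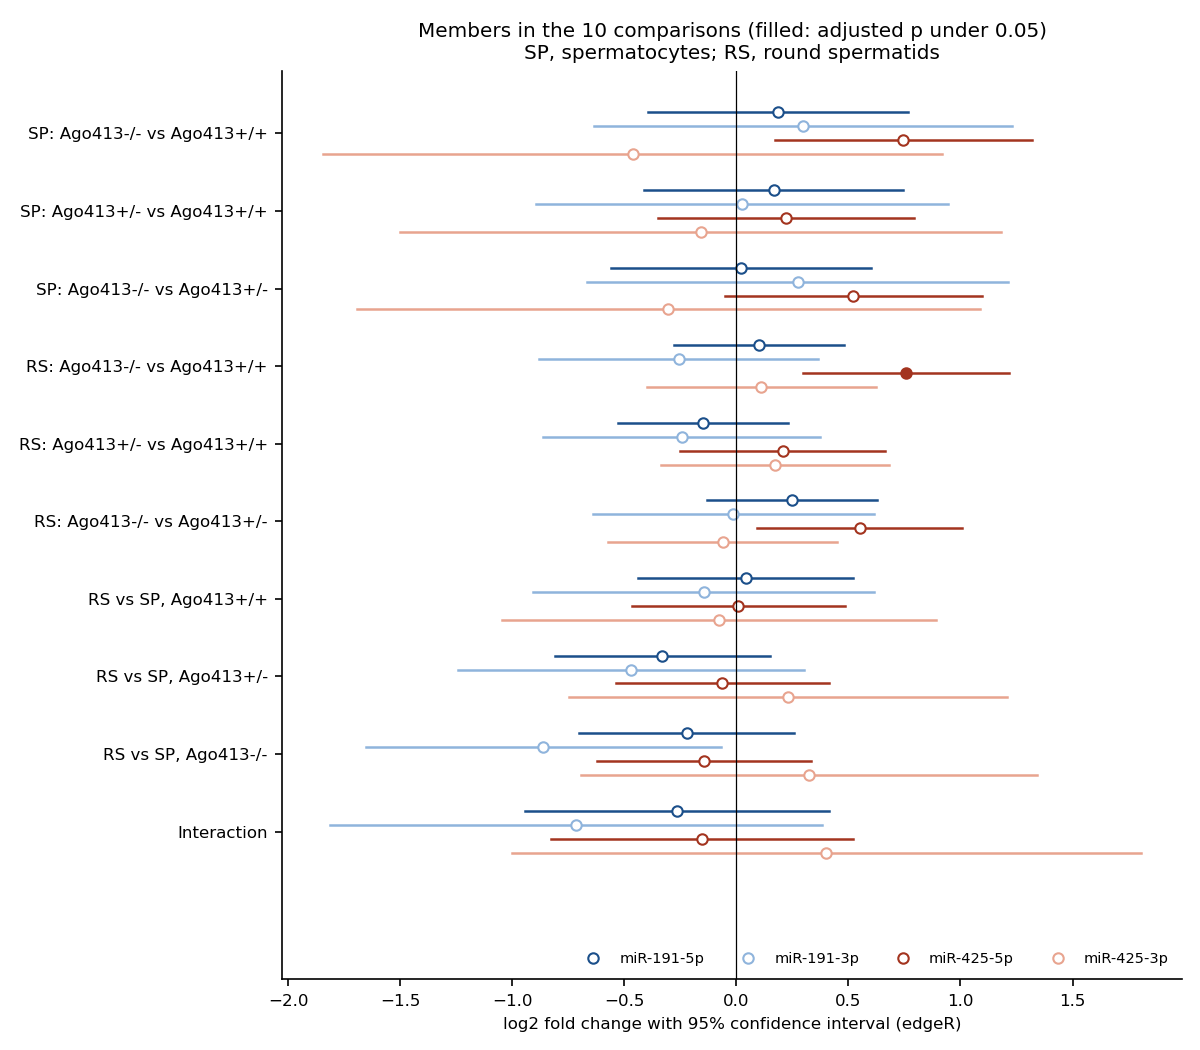
log2 fold change (points) and 95% confidence interval (lines) of the 4 members in each of the 10 comparisons by edgeR, with filled points for an adjusted p under 0.05. The only filled point is miR-425-5p in round spermatids, Ago413-/- against Ago413+/+ (0.76), and its spermatocyte counterpart (0.75) has the wider interval.

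No member passed the test between round spermatids and spermatocytes in any genotype. In Ago413+/+ the log2 fold change was 0.04 (95% confidence interval -0.44 to 0.52) for miR-191-5p and 0.01 (-0.47 to 0.48) for miR-425-5p, so that the interval of neither 5p arm reached beyond 1.44-fold. The 3p arms were less precise, with -0.15 (-0.91 to 0.61) for miR-191-3p and -0.08 (-1.05 to 0.89) for miR-425-3p. In edgeR 0 of 450 miRNAs passed in Ago413+/+ (10 at an unadjusted p under 0.05) and 0 in Ago413+/- (15), and DESeq2 called 0 in both. Without a filter on low counts edgeR called 4 and 5. In Ago413-/-, where 4.89% of miRNAs passed, the largest member difference was that of miR-191-3p, -0.86 (-1.66 to -0.07), with an adjusted p of 0.154 in edgeR. It was -0.30 without spermatocyte replicate 2, the library with the highest miR-191-3p level.

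The ratio of miR-191-5p to miR-425-5p within a library does not depend on how libraries are scaled. In Ago413+/+ it was 10.3 in both cell types (geometric means, ranges 8.37 to 12.9 in spermatocytes and 8.91 to 11.2 in round spermatids), and in Ago413-/- it was 6.77 (4.75 to 9.28) in spermatocytes and 6.65 (5.65 to 8.11) in round spermatids. The ratios of Ago413+/- lay between them, at 9.67 and 8.27. In round spermatids every Ago413-/- library was below every Ago413+/+ library, with a difference of -0.63 ± 0.14 (SE, n = 4 against 4) on the log2 scale and p = 0.0286 in an exact two-sided permutation test, the smallest p that 4 against 4 libraries can give (0.129 after adjustment over the 9 ratio tests). In spermatocytes the difference was -0.60 ± 0.26 (SE, n = 4 against 4, exact permutation p = 0.0571, adjusted 0.171), and -0.43 without Ago413-/- replicate 2. Among libraries numbered up to 60 the log2 difference was -1.15 in spermatocytes and -0.77 in round spermatids, and among those above it was -0.05 and -0.50. In spermatocytes numbered above 60 the groups overlapped. Mean miR-191-5p also differed between the genotypes, in opposite directions in these sets. In round spermatids it was 43174 CPM in Ago413-/- against 36084 CPM in Ago413+/+ up to 60, and 40398 against 50986 CPM above. In spermatocytes it was 40062 against 43852 CPM up to 60, and 57462 against 40759 CPM above. Its levels overlapped up to 60 and not above, with 2 libraries against 2, too few to test. The ratio differences within these sets thus do not measure miR-425-5p alone.

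The 5p arm was the major product of both hairpins in every library. miR-191-5p exceeded miR-191-3p by a geometric mean of 433-fold over the 24 libraries (105 to 751), computed with 0.5 added to each count, and miR-191-3p made up 0.129% to 0.934% of the counts of its hairpin. The highest share was that of Ago413-/- spermatocytes replicate 2 (38 counts beside 4030 of miR-191-5p, Wilson 95% confidence interval 0.681% to 1.28%). miR-425-5p exceeded miR-425-3p by a smaller factor, with geometric means of 36.8 in Ago413+/+ spermatocytes and 37.8 in Ago413+/+ round spermatids. miR-425-3p was thus the larger of the minor arm shares, 2.78% ± 1.15 and 2.58% ± 0.378 of its hairpin (SD, n = 4 each). The intervals describe counting error alone, because PCR copies of a molecule could not be told from separate molecules.

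In round spermatids the miR-425 arm ratio was higher in all Ago413-/- libraries than in any Ago413+/+ library. The Ago413+/+ libraries had ratios of 37.8, 30.9, 41.7 and 41.8, and the Ago413-/- libraries 50.7, 90.9, 48.8 and 57.0. The difference was 0.66 ± 0.23 (SE, n = 4 against 4) on the log2 scale, with an exact permutation p of 0.0286 and an adjusted p of 0.129. It was 0.99 among libraries numbered up to 60 and 0.34 among those above. The difference did not pass after adjustment.
In spermatocytes the ratios were 21.8, 34.7, 42.6 and 57.2 in Ago413+/+ and 114, 1697, 77.0 and 37.3 in Ago413-/-, where the value of 1697 is set by the 0.5 added to 0 counts. That library had 848 counts of miR-425-5p, and a count of 0 allows a miR-425-3p share of up to 0.353%, a ratio of at least 283. The difference of 2.06 on the log2 scale (exact permutation p = 0.0857) fell to 0.90 (exact permutation p = 0.171) without it.
For the miR-191 arm ratio the groups overlapped, and the difference of Ago413-/- from Ago413+/+ was 0.29 ± 0.22 (SE, n = 4 against 4, exact permutation p = 0.2) in round spermatids and -0.08 ± 0.62 (exact permutation p = 0.971) in spermatocytes, where it was 0.51 without Ago413-/- replicate 2. Between the cell types of Ago413+/+ the 3 ratios differed by 0.23, 0.04 and 0.01 on the log2 scale (exact permutation p = 0.4, 0.914 and 0.971 in the order miR-191 arms, miR-425 arms, miR-191-5p to miR-425-5p).

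**Figure D5:**
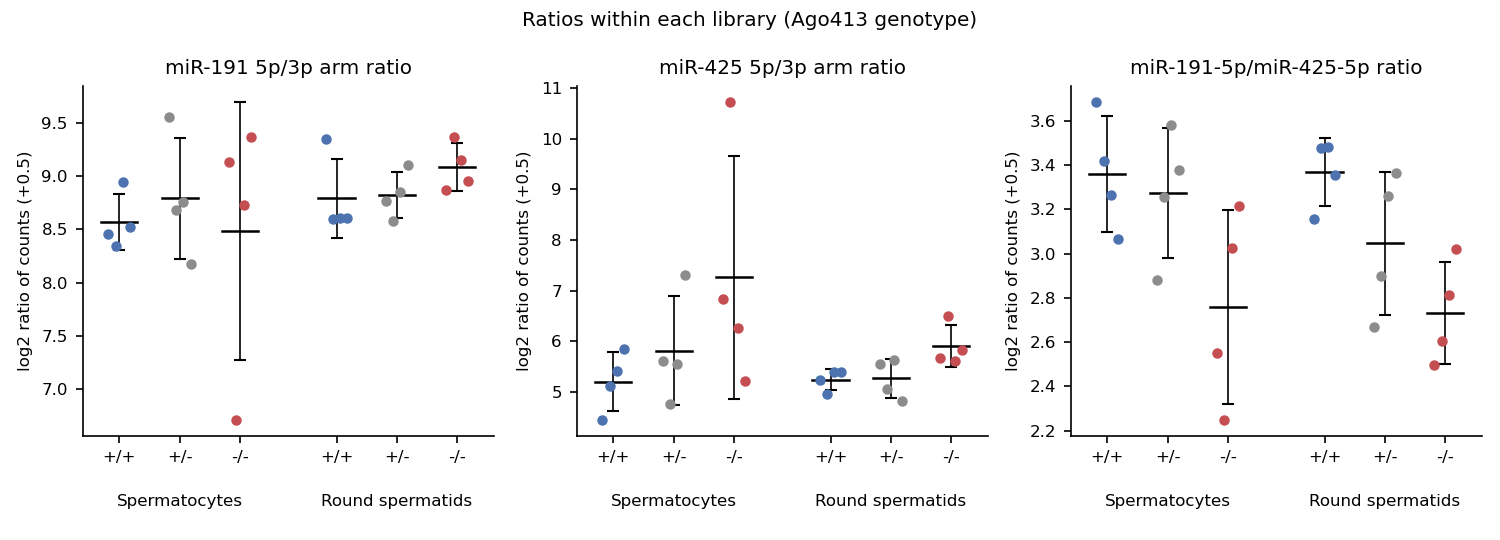
log2 ratios of counts (0.5 added) within each library for the arms of miR-191, the arms of miR-425 and miR-191-5p to miR-425-5p, with 1 point per library and the mean and SD of each group of 4 in black. In round spermatids the Ago413-/- points lie above Ago413+/+ in the middle panel and below them in the right panel, and the highest point of the middle panel is the library with 0 counts of miR-425-3p.

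For miR-191-5p and miR-425-5p the miRNAs with the most similar pattern over the 24 libraries were looked up, and neither the other arm nor the neighbouring hairpin was among the 5 nearest. Likeness was measured as the root mean square difference of log2 CPM, centred for each miRNA, so that steady miRNAs are close to each other. The 5 nearest to miR-191-5p were miR-183-5p (0.22), miR-26a-5p (0.25), miR-30c-5p (0.25), miR-340-3p (0.26) and miR-106b-3p (0.27), where the median over 449 miRNAs was 0.77. miR-425-5p was the nineteenth nearest (0.37), and miR-191-3p ranked 94 (0.55). The 5 nearest to miR-425-5p were miR-24-3p (0.28), miR-194-5p (0.32), miR-190b-5p (0.34), miR-28a-5p (0.35) and miR-340-3p (0.35), with miR-191-5p the thirteenth nearest, miR-425-3p at rank 386 and a median of 0.83. The rank of miR-425-3p includes the library where it had 0 counts. These likeness values are descriptions over libraries that differ in genotype and depth.

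A list of 10 miRNAs often used as references for expression assays set miR-191-5p beside its usual alternatives. Over the 24 libraries miR-24-3p (SD of log2 CPM 0.22) and miR-26a-5p (0.26) were steadier than miR-191-5p (0.30), and the other 8 varied more, up to 0.79 for miR-423-5p. In round spermatids 1 of 10 passed edgeR's test in Ago413-/- against Ago413+/+, miR-16-5p with a log2 fold change of 0.90 ± 0.24 (SE, adjusted p = 0.0134), where 23.7% of all miRNAs passed in either direction, and none passed downwards, with a median of 0.20 beside 0.13 for all miRNAs. In spermatocytes 0 of 10 passed, where 4.46% of all miRNAs did, with a median of 0.16 beside -0.05. The list members nearest to a member of the cluster by mean level were miR-23a-3p (224 CPM), miR-16-5p (5446 CPM) and miR-93-5p (4551 CPM). In round spermatids miR-93-5p gave 0.53 (adjusted p = 0.0803, edgeR) and miR-23a-3p 0.45 (adjusted p = 0.205, edgeR), neither past the test. Between the cell types of Ago413-/-, miR-423-5p was lower in round spermatids by a log2 fold change of -1.71, the only list member past that test.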

How the data were processed

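Small RNA-seq libraries were prepared from 100 ng of total RNA with the NEBNext Small RNA kit. The authors trimmed the reads with TrimGalore (reads under 10 nt removed) and used miRDeep2 to assign them to mouse miRNAs from miRBase. The deposited values are raw counts of single mature miRNAs, and the labels gave each library's group and replicate number. A miRNA entered a fit when 3 or more of its libraries held 10 counts or more. Library sizes were scaled by TMM and the quasi-likelihood test of edgeR 4.0.16 (R 4.3.3) was applied, with Benjamini-Hochberg adjustment over all of them. Genotypes were compared in the 12 libraries of a cell type, and cell types and the interaction in 1 fit of 24 libraries in 6 groups. Ratios were compared by exact permutation tests (SciPy 1.17.1). DESeq2 1.42.0, other scalings and filters, a replicate block, and left-out replicates were alternatives, and the term for library number was chosen after seeing the data. The fits were tested on simulated data. Named miRNAs are the members, the 5 nearest to miR-191-5p and to miR-425-5p, those sharing a seed, and the reference and cell type lists. Members and lists were chosen with earlier results of these data known. Replicates are separate labelled libraries of pooled mice, and p-values measure the spread among them.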

Additional observations from a re-analysis of the deposited data

Results flagged for a closer look

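A single library far from its group was looked for in 42 sets of 4 values. These were each member level and each ratio in each group, so the same libraries recur. Such a library was found in 2 sets, and about 2.1 would be found by chance. In Ago413+/+ spermatocytes the miR-425-5p level of replicate 4 was 5362 CPM, against 3690 to 3809 CPM in the other libraries of that group. In Ago413+/+ round spermatids the log2 ratio of miR-191-5p to miR-191-3p was 9.35 in replicate 1, against 8.60 to 8.61 in the other libraries, with 24 counts of miR-191-3p behind it.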

How the results depend on the processing

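Of 665 alternative log2 fold changes of the members, 580 kept their direction and their side of the threshold, 75 changed sign without passing a test, 8 lost a call and 2 gained one. The main fits held a single call that could be lost, miR-425-5p in round spermatids, Ago413-/- against Ago413+/+. All 8 losses were of this call, which was kept in 8 of its 16 alternatives. Of 90 alternative values of the ratios, 63 kept their direction and side, 9 changed sign and 18 no longer passed the unadjusted threshold. All 18 came with a replicate left out, where 4 against 3 libraries cannot give an exact p below 0.0571, or with pairs. No ratio could pass in those settings, so a ratio that had not passed could only keep its side there. The 18 losses were thus fixed in advance by the number of libraries or pairs, and no conclusion is drawn from them.
The number of members past the test in spermatocytes, Ago413-/- against Ago413+/+, was 1 under DESeq2 in place of 0. In round spermatids it was 0 in place of 1 with an added threshold on the fold change, library totals, no filter, or only the groups compared in the fit, and 0 to 1 with single replicates left out, as it was for Ago413-/- against Ago413+/-.
Same-numbered libraries did not deviate together throughout any comparison. Between genotypes r ran from -0.386 to 0.416 and 3 of 24 pairs were closest to their own number. Between cell types r ran from -0.165 to 0.425 and 6 of 12 were. In 11 of these 12 cell type pairs the label numbers are consecutive, but the labels do not say that a number marks shared animals, so the pairs were not blocked in the reported values. With the replicate block 0 of 40 member calls changed. In round spermatids the paired differences were 0.66 for the miR-425 arm ratio and -0.63 for miR-191-5p to miR-425-5p, where 4 pairs cannot give an exact p below 0.125.
With single replicates left out the log2 differences of ratios ran from -0.38 to 0.51 (miR-191 arms, spermatocytes), 0.46 to 0.76 (miR-425 arms, round spermatids) and -0.73 to -0.56 (miR-191-5p to miR-425-5p, round spermatids), and between the Ago413+/+ cell types from -0.22 to 0.25 (miR-425 arms) and -0.089 to 0.12 (miR-191-5p to miR-425-5p).
Other settings turned these log2 fold changes, none past a test. In spermatocytes miR-191-3p in Ago413+/- against Ago413+/+ was -0.059 by library totals, -0.096 without a filter and -0.028 with the replicate block. In Ago413-/- against Ago413+/- miR-191-5p was -0.032 by RLE and DESeq2, -0.10 by totals, -0.14 with at least 10 counts in every library, -0.014 with the block and -0.021 with the library number. In round spermatids, Ago413-/- against Ago413+/+, miR-191-5p was -0.0061 by RLE and DESeq2, -0.10 by totals, -0.14 without a filter, -0.010 with the strict filter and -0.13 with only the groups compared, and miR-425-3p was -0.12 by totals and without a filter, -0.0058 with the strict filter and -0.11 with only the groups compared. Between the Ago413+/+ cell types miR-191-5p was -0.097 by totals, -0.014 without a filter and -0.028 with the strict filter, and miR-425-5p was -0.12, -0.049 and -0.063 in that order and -0.025 with only the groups compared. The interaction of miR-425-5p was 0.049 with the strict filter.
Leaving out single replicates moved signs within these ranges. In spermatocytes, Ago413-/- against Ago413+/+, miR-191-3p ran from -0.13 to 0.42. In Ago413+/- against Ago413+/+ miR-191-3p ran from -0.16 to 0.19 and miR-425-3p from -0.62 to 0.19. In Ago413-/- against Ago413+/- miR-191-5p ran from -0.063 to 0.19, miR-191-3p from -0.19 to 0.49 and miR-425-3p from -0.76 to 0.092. In round spermatids, Ago413-/- against Ago413+/+, miR-191-5p ran from -0.25 to 0.20 and miR-425-3p from -0.17 to 0.21, while miR-425-5p stayed at 0.47 to 0.83. In Ago413-/- against Ago413+/- miR-191-3p ran from -0.23 to 0.059 and miR-425-3p from -0.29 to 0.035. Between cell types miR-191-5p, miR-191-3p, miR-425-5p and miR-425-3p ran from -0.12 to 0.16, -0.36 to 0.081, -0.11 to 0.10 and -0.23 to 0.19 in Ago413+/+, miR-425-5p and miR-425-3p from -0.24 to 0.068 and -0.075 to 0.58 in Ago413+/-, and miR-425-5p from -0.25 to 0.054 in Ago413-/-. The interaction ran from -0.38 to 0.0029 for miR-191-5p and from -0.26 to 0.098 for miR-425-5p.
Over all miRNAs the calls in spermatocytes were 18 in Ago413-/- against Ago413+/+ (70 by DESeq2, 55 without a filter, 11 to 19 with replicates left out) and 9 against Ago413+/- (66, 40 and 5 to 57). In round spermatids they were 101 (64 to 95 with replicates left out) and 81 (35 to 82, and 53 with the block), and between the Ago413-/- cell types 22 (1 to 65, 47 by DESeq2 and 2 with only the groups compared). miR-425-3p has no value with at least 10 counts in every library in spermatocytes and across cell types. At 16 to 111 counts of miR-191-3p and 0 to 125 of miR-425-3p a library, depth limits what can be seen of the 3p arms.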
